A study of Arabidopsis thaliana with 3 samples.

Results

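Accessible sites just past the ends of genes were taken from a map of open chromatin in Arabidopsis thaliana roots. They are called gene-end sites here. A peak list was available for each of 3 libraries, and overlapping peaks were merged into 43236 sites, of which 20186 had a peak in all 3 libraries and are called shared sites. A shared site was a gene-end site when its midpoint lay 1 to 400 bp past the 3' end of a protein-coding gene, in no gene, and more than 1000 bp from every transcription start site (TSS) on its upstream side. This gave 799 gene-end sites, 3.96% of the shared sites. The TSS condition keeps promoters out, so that only convergent gene pairs and wide gaps between genes could hold such a site.

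The libraries were made by ATAC-seq, which reads out DNA that the Tn5 transposase can reach, from roots of 14 days old Col-0 plants grown on vertical agar plates in long days. All 3 libraries belonged to a single group with the genotype "expressing INTACT", a transgene that puts a biotin tag on the nuclear envelope so that nuclei can be caught by streptavidin affinity purification. In the methods of the study the transgene was driven by the 35S promoter, which is active in most cell types, so the values are averages over the nuclei of a whole root. The study calls them biological repeats and made each from a different amount of nuclei, but the labels do not tie them to separate cultures, so part of the spread between them may be technical.

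The 3' end of a gene is where the transcript is cut and polyadenylated and where RNA polymerase II stops. The DNA past it can also carry regulatory elements. Well-known plant cases are TFL1 and CLV3, whose 3' regions are needed for their expression in the shoot meristem, FT, which has an enhancer downstream of the gene, and FLC, from whose 3' end the antisense transcripts called COOLAIR start.

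The sequences of 10 gene-end sites carry the patterns described below and are shown in the direction of the gene that ends beside them, as up to 150 bases around the midpoint from the RefSeq TAIR10.1 assembly. Capitals mark TGGGCC or its complement GGCCCA, the palindrome GGGCCC and the palindrome CACGTG. The first, TGGGCC, is the core of the site II element, which TCP transcription factors bind, and CACGTG is the G-box, bound by bHLH and bZIP factors. The first 4 are among the 8 sites with the highest enrichment, RALFL21 has the most TGGGCC matches, HB-2 and AT1G13370 are a transcription factor and a histone gene, LYK4 has 3 G-boxes, AGK2 has 1, and AT5G06040, the widest site, has none of these motifs in the bases shown.
AT5G58840, chr5:23762444-23762593, plus strand: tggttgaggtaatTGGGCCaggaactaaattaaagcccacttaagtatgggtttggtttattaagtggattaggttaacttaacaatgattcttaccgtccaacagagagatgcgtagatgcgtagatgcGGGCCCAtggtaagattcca
GALS3 (AT4G20170), chr4:10899180-10899329, plus strand: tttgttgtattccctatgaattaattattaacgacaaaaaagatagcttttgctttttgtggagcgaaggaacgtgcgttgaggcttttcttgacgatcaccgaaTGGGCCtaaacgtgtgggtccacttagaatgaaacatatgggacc
AT5G11470, chr5:3662481-3662630, minus strand: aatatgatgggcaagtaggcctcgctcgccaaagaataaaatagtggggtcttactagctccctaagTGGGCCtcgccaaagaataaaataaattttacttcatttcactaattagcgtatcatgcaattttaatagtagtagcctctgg
NAC049 (AT3G04430), chr3:1175327-1175476, minus strand: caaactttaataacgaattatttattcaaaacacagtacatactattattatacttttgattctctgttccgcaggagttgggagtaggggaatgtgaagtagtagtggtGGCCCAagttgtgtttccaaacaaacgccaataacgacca
RALFL21 (AT3G04735), chr3:1292039-1292188, minus strand: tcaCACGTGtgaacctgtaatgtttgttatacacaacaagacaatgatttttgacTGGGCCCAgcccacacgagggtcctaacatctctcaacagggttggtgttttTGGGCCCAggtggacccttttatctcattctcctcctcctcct
HB-2 (AT4G16780), chr4:9451105-9451254, plus strand: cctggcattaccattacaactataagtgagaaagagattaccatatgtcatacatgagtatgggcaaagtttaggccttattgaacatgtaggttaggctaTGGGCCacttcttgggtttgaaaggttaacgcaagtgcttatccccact
AT1G13370, chr1:4587432-4587581, minus strand: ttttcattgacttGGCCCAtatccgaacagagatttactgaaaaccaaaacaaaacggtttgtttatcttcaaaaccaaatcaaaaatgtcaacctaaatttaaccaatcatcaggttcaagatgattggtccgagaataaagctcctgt
LYK4 (AT2G23770), chr2:10119595-10119744, minus strand: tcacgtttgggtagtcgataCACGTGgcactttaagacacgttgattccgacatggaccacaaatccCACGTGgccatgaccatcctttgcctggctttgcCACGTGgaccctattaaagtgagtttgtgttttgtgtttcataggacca
AGK2 (AT3G57550), chr3:21309833-21309982, plus strand: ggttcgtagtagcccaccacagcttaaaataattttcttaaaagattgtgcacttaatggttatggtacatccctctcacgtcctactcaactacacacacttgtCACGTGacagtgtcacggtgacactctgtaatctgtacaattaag
AT5G06040, chr5:1816342-1816491, plus strand: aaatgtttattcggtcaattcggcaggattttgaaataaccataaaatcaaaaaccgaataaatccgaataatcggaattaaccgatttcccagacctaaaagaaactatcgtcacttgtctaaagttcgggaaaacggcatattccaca

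Gene-end sites were spread over the 400 bp with no pile-up at the gene end itself. Between 1 and 100 bp past the end lay 193 sites, between 101 and 200 bp 235, between 201 and 300 bp 211, and between 301 and 400 bp 160. Per megabase (Mb) of positions that met the rule, these were 187, 279, 289 and 249 sites, so the first 100 bp were the poorest in sites although they made up 31.8% of the eligible positions. The median distance was 191 bp (quartiles 102 and 280 bp, range 2 to 399 bp). Over all 3249411 eligible bases there were 246 gene-end sites per Mb, against 169 shared sites per Mb of the whole nuclear genome.

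The sites were slightly narrower than shared sites in general, with a median width of 269 bp against 284 bp, and ranged from 91 to 1070 bp. Of the 799 sites, 308 (38.5%) reached back into the gene they follow, with a median of 23.5% of their width inside it, and 482 overlapped no gene. A gene other than the host was overlapped by 32 sites, some of which also overlapped the host. The midpoint rule therefore placed most, but not all, of the accessible DNA outside transcribed sequence.

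Of the 12400 protein-coding genes whose 3' flank held at least 1 eligible position, 847 had a gene-end site, which is 6.83% of the gene ends tested. These genes are called hosts. Of the hosts, 837 had 1 site and 10 had 2. The share was 7.25% on chromosome 1, 5.67% on chromosome 2, 6.78% on chromosome 3, 6.67% on chromosome 4 and 7.32% on chromosome 5. A host that shares its site with a convergent neighbour is counted once for each gene end, and 58 sites lay within 400 bp of more than 1 gene end.

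The gene after the site ended toward it (convergent) at 367 sites and started past it, in the same direction as the host (tandem), at 432 sites. Convergent sites lay in tighter gaps, with a median gap of 1099 bp against 2164 bp for tandem sites. Their median distance from the gene end, 183 bp, was close to the 194 bp of tandem sites. In gaps between 2 convergent protein-coding genes the share with a gene-end site was 0.910% of 1318 gaps of 1 to 200 bp, 3.69% of 488 gaps of 201 to 400 bp, 10.9% of 521 gaps of 401 to 800 bp, 16.2% of 469 gaps of 801 to 1600 bp and 17.4% of 448 wider gaps. Very short convergent gaps thus rarely held a site. In tandem gaps the share was 5.04% of 1329 gaps of 1001 to 1400 bp, 9.95% of 1206 gaps of 1401 to 2000 bp, 9.53% of 1018 gaps of 2001 to 3000 bp, 10.4% of 849 gaps of 3001 to 5000 bp and 14.2% of 360 wider gaps. Wider gaps offer more eligible bases only up to 800 bp in convergent and 1400 bp in tandem gaps, where the 400 bp limit is reached. The part of this in the shares was not tested.

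**Figure D1:**
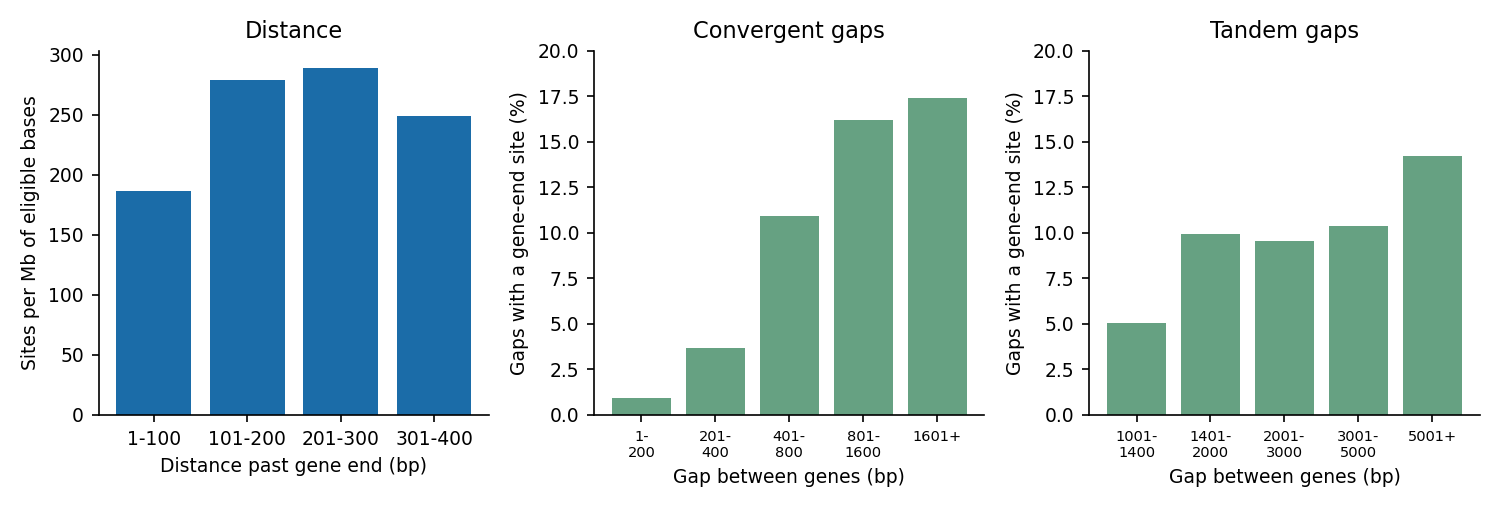
Left, gene-end sites per Mb of eligible bases by distance past the gene end (bp). Middle and right, the percentage of convergent and of tandem gaps between protein-coding genes that hold a gene-end site, by gap width (bp). The first 100 bp hold 187 sites per Mb against 249 to 289 farther out, and the share of convergent gaps with a site runs from 0.910% in the tightest to 17.4% in the widest.

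Signal was the mean read count of the 100 bp windows in a site divided by the mean window count of the library, so that 1 is the genome average. The mean window count was 12.96, 13.60 and 23.88 in libraries 1, 2 and 3, and the median gene-end site had a mean count of 36.7, 45.1 and 61.8. All 799 sites were at or above the genome average in every library, as peaks had to be, and 684 were at 2 times the average or more in every library. Single values ranged from 1.32 to 6.70. Library 2 gave the highest signal at 682 sites (85.4%, against 85.1% of all shared sites), so it was high at shared sites in general.

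The median signal of gene-end sites was 2.83, 3.32 and 2.59 in libraries 1, 2 and 3, or 2.91 ± 0.372 (SD, n = 3). Upstream promoter sites, which are the 6736 shared sites with a midpoint 1 to 400 bp upstream of a TSS, had medians of 2.78, 3.30 and 2.51 (2.86 ± 0.401). Distal sites are the 3286 shared sites in no gene, more than 400 bp past any gene end and more than 1000 bp upstream of any TSS. They had medians of 3.02, 3.60 and 2.64 (3.09 ± 0.479). The 3082 gene body sites, which lie in a gene more than 400 bp past its TSS, had 2.80, 3.17 and 2.54 (2.84 ± 0.316). Of these, 463 were also upstream promoter sites. Distal sites were the highest class in each library, and the gene-end median stood at percentile 49.5 of all shared sites.

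Within a library, the log2 ratio of gene-end to upstream promoter sites was 0.02 ± 0.02 (SD, n = 3, higher in 3 of 3 libraries, p = 0.25 in a two-sided exact sign-flip permutation test). With windows of 200 bp centred on the midpoint it was -0.02, so no direction is given. Against distal sites the ratio was -0.08 ± 0.04 (lower in 3 of 3 libraries, exact p = 0.25) and against gene body sites 0.04 ± 0.03 (higher in 3 of 3, exact p = 0.25). The exact test on 3 libraries cannot give a p below 0.25, so none of these differences could pass a threshold of 0.05. The ratio to distal sites was -0.10, -0.12 and -0.03 in libraries 1, 2 and 3.

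**Figure D2:**
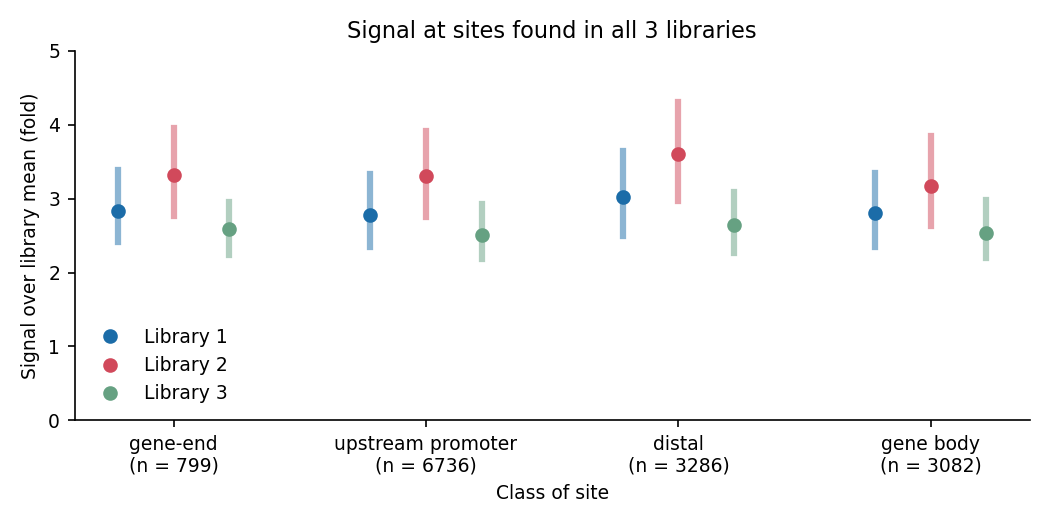
Signal over the library mean (fold) at shared sites by class, with gene-end sites on the left. Points are medians over sites and bars the quartiles, 1 colour for each library. The gene-end medians of 2.83, 3.32 and 2.59 lie within the quartiles of every other class, and library 2 is highest in each class.

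The fold enrichment given by the authors' peak caller, which compares the summit with a background modelled in the same library, placed the classes differently. Its median at gene-end sites was 3.05, 3.26 and 2.71 in libraries 1, 2 and 3, against 3.30, 3.76 and 2.89 at upstream promoter sites. It was 3.15, 3.31 and 2.77 at distal sites and 3.09, 3.33 and 2.74 at gene body sites. On this scale gene-end sites were the lowest of these classes in each library. Mean counts over the whole site had placed them level with upstream promoter sites and slightly above gene body sites.

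Convergent and tandem sites had nearly the same signal, with medians of 2.79, 3.28 and 2.58 at convergent sites against 2.85, 3.34 and 2.59 at tandem sites. The log2 ratio was -0.02 ± 0.02 (n = 3, exact p = 0.25). The ratio of the highest to the lowest library had a median of 1.32 at gene-end sites and 1.34 at all shared sites, and no gene-end site exceeded 2. R squared between libraries, on a log2 scale with 1 added to each mean count, was 0.722, 0.790 and 0.717 for the pairs 1 and 2, 1 and 3, and 2 and 3, against 0.688, 0.790 and 0.706 over all shared sites. Sites are not independent replicates, so R squared is a description only.

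Of 1638 merged sites at positions that meet the rule, 799 had a peak in all libraries (48.8%), 334 in 2 and 505 in 1. The same share was 46.7% of all merged sites, 57.4% for upstream promoter sites, 49.0% for distal sites and 29.6% for gene body sites. Of the 505 sites found once, 320 came from library 2, which had the longest peak list with 36033 peaks against 26404 in library 1 and 34828 in library 3. The share at gene ends was thus near that of merged sites in general.

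Mean signal around the ends of hosts had its summit past the end, at 175, 200 and 175 bp in libraries 1, 2 and 3, with values of 2.72, 3.18 and 2.47. At the end itself it was 2.12, 2.47 and 1.98, and 1000 bp before the end 1.38, 1.36 and 1.40. The 11553 other eligible ends stayed close to the genome average, with extremes of 0.928 and 1.10 in library 1, 0.963 and 1.09 in library 2, and 0.949 and 1.14 in library 3. The peak of the hosts follows from the rule that chose them. Outside it, at 1000 bp past the end, hosts still had 1.66, 1.95 and 1.57 against 1.04, 1.09 and 1.04 at other eligible ends. At 1000 bp before the end the other eligible genes had 1.04, 0.980 and 1.06, also below the hosts.

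**Figure D3:**
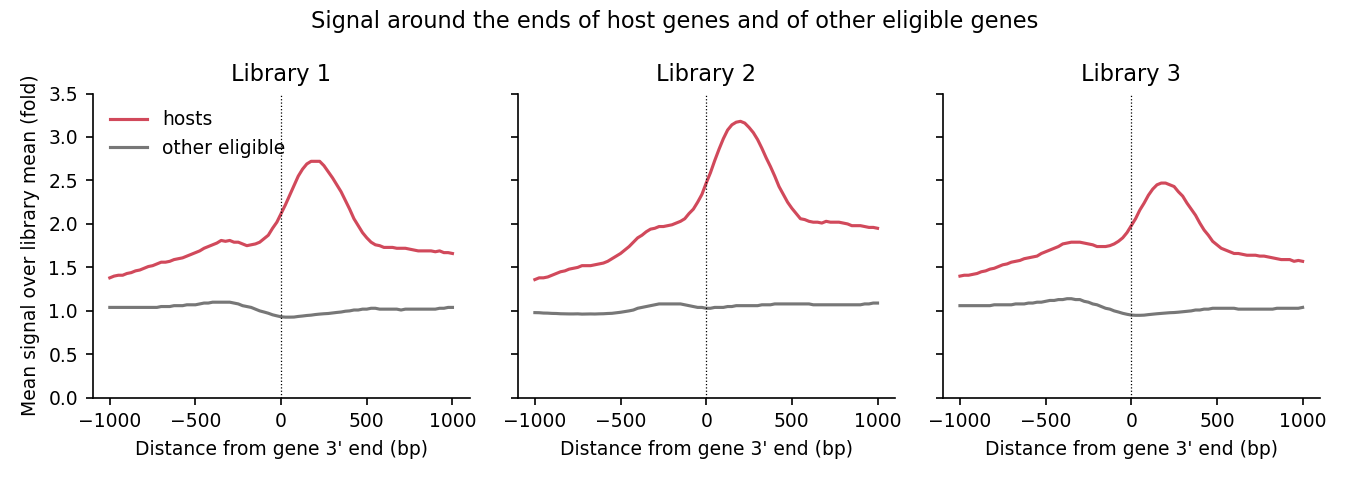
Mean signal over the library mean (fold) from 1000 bp before to 1000 bp past the 3' end, 1 panel for each library. Red is the 847 hosts and grey the 11553 other eligible genes. The hosts peak at 2.72, 3.18 and 2.47, 175 to 200 bp past the end, while the other genes stay between 0.928 and 1.14.

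The promoters of hosts, which the rule did not use, had a higher median signal than those of other eligible genes in each library. Over the 400 bp upstream of the TSS the median signal was 1.52, 1.84 and 1.48 at hosts in libraries 1, 2 and 3, against 1.14, 1.33 and 1.16 at other eligible genes. The log2 ratio was 0.41 ± 0.06 (SD, n = 3), a 1.33-fold difference that was larger than the spread between libraries and held in 3 of 3 (exact p = 0.25, the smallest possible). Among genes whose length lay within the quartiles of the hosts it was 0.21, and hosts were longer, with a median of 2153 bp against 1947 bp. A shared site within 400 bp upstream of the TSS was present at 199 hosts (23.5%) and at 2478 other eligible genes (21.4%). Hosts also had higher mean signal 1000 bp before and 1000 bp past the gene end, so the difference was not seen at promoters only.

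A short motif was present at many gene-end sites. The hexamer TGGGCC, searched on both strands in the 200 bp around the midpoint, was present at 234 of 799 gene-end sites (29.3%) and at 30.6% of upstream promoter sites. It was present at 15.7% of distal sites, at 2.92% of the eligible gene ends without a site, measured 200 bp past the end, and in 3.05% of all 594683 tiles of 200 bp in the nuclear genome. This hexamer was added after the sequences of the highest sites had been read. All shared sites had it at 22.0%. Gene-end sites had a median GC content of 35.5%, against 32.0% at ends without a site. Among windows of 34 to 38% GC the shares were 31.5% of 267 gene-end sites and 4.50% of 2646 ends without a site. In windows of that GC content TGGGCC was at 34.6% of upstream promoter sites, 20.1% of distal sites and 24.8% of all shared sites. Windows at ends without a site were placed 200 bp past the end whether or not that position met the rule. Some may therefore lie in a neighbouring gene, for this and the other motifs. Windows of gene-end sites close to the end reach into the host gene, whereas windows at ends without a site do not reach into their own gene. The part of these differences in the shares was not tested.

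The share with TGGGCC was similar over positions and arrangements. It was 30.8% at convergent and 28.0% at tandem sites, and 33.7%, 28.1%, 27.5% and 28.1% in successive bins of 100 bp from the gene end. At the same kind of position it was 15.6% of the 334 sites with a peak in 2 libraries and 8.32% of the 505 sites with a peak in 1. The matches clustered at the midpoint, with 175 and 160 in the 100 bp on its upstream and downstream side, 36 and 48 in the next 100 bp, and 11 to 25 in each bin beyond. Both strands were used, the host strand at 18.3% and the other strand at 16.8% of sites, so the element had no fixed direction relative to the gene that ends there.

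Sites with TGGGCC were narrower, with a median width of 241 bp against 284 bp for the 565 without. Their median signal was 2.95, 3.35 and 2.66 in libraries 1, 2 and 3, against 2.78, 3.28 and 2.55 without. Their median fold enrichment was 3.14, 3.37 and 2.81, against 3.00, 3.22 and 2.64. These are small differences in 1 direction in all 3 libraries, given with no test because the hexamer was picked with the sites in view. Of the 234 sites, 153 had 1 match, 65 had 2, 15 had 3 and 1 had 4, where TGGGCCCA counts as 2 because it reads the same on both strands.

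The site with 4 matches follows RALFL21 (AT3G04735), a gene for a signalling peptide of the RALF family, at chromosome 3, 1292017 to 1292212, 245 bp past the end. Its signal was 5.31, 5.96 and 4.04 in libraries 1, 2 and 3, and it also has a G-box, as do only 14 of the sites with TGGGCC. HB-2 (AT4G16780), a homeobox transcription factor of the shade avoidance response, has a site at chromosome 4, 9451088 to 9451273, 275 bp past its end, with a signal of 4.39 ± 0.678 (SD, n = 3). RTNLB13 (AT2G23640), a reticulon-like protein of the endoplasmic reticulum, has one at chromosome 2, 10059231 to 10059612, with 2.66, 3.25 and 2.47. These 3 genes had the most TGGGCC matches, ties being broken by fold enrichment, and lay at very different levels of signal.

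The G-box CACGTG was present at 81 gene-end sites (10.1%), against 13.2% of upstream promoter sites, 12.3% of distal sites, 1.58% of eligible ends without a site and 2.20% of genome tiles. Among windows of 34 to 38% GC it was in 10.9% of gene-end sites, 10.2% of all shared sites and 2.23% of ends without a site. Sites with a G-box had median signals of 2.68, 3.13 and 2.50, against 2.84, 3.33 and 2.59 without. A G-box thus went with slightly lower signal in each library, the reverse of TGGGCC, and no test was made. In all, 301 gene-end sites (37.7%) had TGGGCC, a G-box or both.

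LYK4 (AT2G23770), a LysM receptor-like kinase of chitin signalling, and CRF1 (AT4G11140), a cytokinin response factor, were the only hosts with 3 G-boxes in the window. The LYK4 site, at chromosome 2, 10119530 to 10119811, 303 bp past the end, had 4.88, 5.74 and 3.78 in libraries 1, 2 and 3. The CRF1 site, at chromosome 4, 6794412 to 6794764, 42 bp past the end, had 2.15, 2.50 and 2.21. Its window also covers part of the gene. The LYK4 site was the highest of any host annotated as a protein kinase, while the CRF1 site was below the median of gene-end sites in every library.

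The palindrome GGGCCC, which overlaps TGGGCC where a T precedes it or an A follows it, was present at 35 sites (4.38%), against 3.86% of upstream promoter sites, 2.71% of distal sites, 0.294% of ends without a site and 0.429% of tiles. Among windows of 34 to 38% GC it was at 3.00% of gene-end sites, 3.69% of upstream promoter sites, 2.96% of distal sites and 0.642% of ends without a site. TTGACC, a form of the W-box of WRKY factors and the only one searched, was at 110 sites (13.8%). It was at 13.3% of upstream promoter sites, 12.7% of distal sites, 7.66% of ends without a site and 8.05% of tiles. AAACCCTA, the telo-box of promoters of ribosomal and growth genes, was at 10 sites (1.25%), against 4.33% of upstream promoter sites, 1.07% of distal sites and 2.62% of tiles. TTGACC had a similar share in all 3 classes of site, and the telo-box had a lower share at gene-end and distal sites than at upstream promoter sites.

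The order of the shares for AT-rich motifs depended on the GC content of the windows compared. AATAAA, the consensus of the polyadenylation signal, was at 309 sites (38.7%), against 45.0% of upstream promoter sites, 44.6% of ends without a site and 32.4% of tiles. It lay on the host strand at 22.2% and on the other strand at 21.2% of sites. TATAAA, the TATA box hexamer, was at 271 sites (33.9%), against 3925 of 11553 ends without a site and 25.6% of tiles. Runs of 8 A, or of 8 T, were at 99 sites (12.4%), against 19.4% of ends without a site and 12.9% of tiles. Among windows of 34 to 38% GC each of these was more frequent at gene-end sites than at ends without a site. AATAAA was at 41.6% and 31.9%, TATAAA at 27.3% and 22.3% and the runs at 13.5% and 10.2%. All shared sites in windows of that GC content had 45.2%, 30.9% and 15.5%. Gene-end sites were thus below shared sites in general for each of these motifs.

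**Figure D4:**
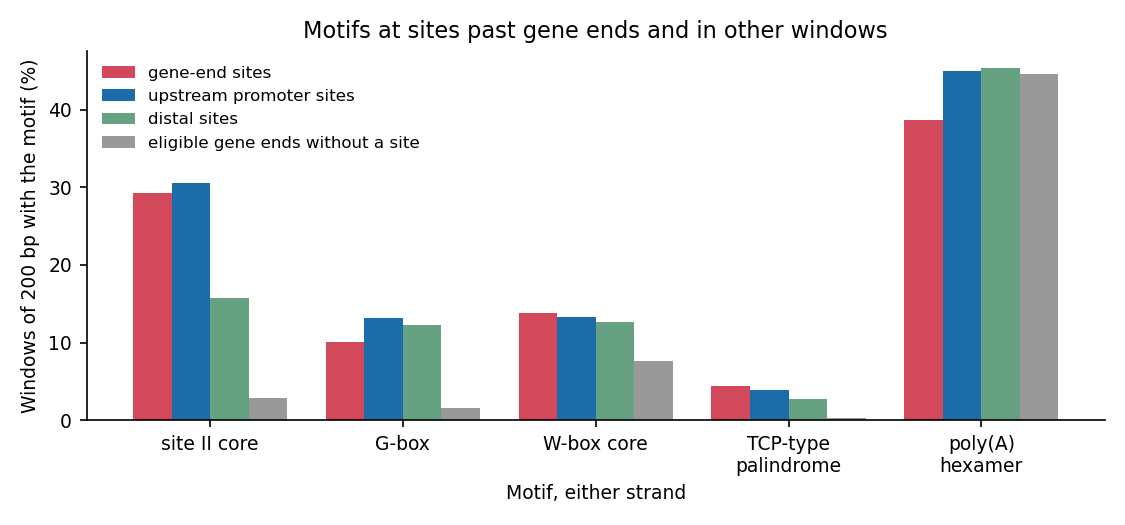
Percentage of 200 bp windows that hold each motif on either strand, with gene-end sites first, then upstream promoter sites, distal sites and eligible gene ends without a site. Windows of the last class were centred 200 bp past the end, and some may lie in a neighbouring gene. Windows of gene-end sites close to the end reach into the host gene. The site II core TGGGCC is at 29.3% of gene-end sites and 2.92% of ends without a site. The G-box CACGTG is at 10.1% and 1.58%, and TTGACC, a form of the W-box labelled W-box core, at 13.8% and 7.66%. The palindrome GGGCCC is at 4.38% and 0.294%, and the polyadenylation hexamer AATAAA at 38.7% and 44.6%.

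Averaged over libraries as a geometric mean, the fold enrichment was highest, at 5.50, at the site that follows AT5G58840, a subtilase gene, at chromosome 5, 23762280 to 23762758, 81 bp past the end. Its signal was 3.17, 3.54 and 3.00 in libraries 1, 2 and 3. GALS3 (AT4G20170), a galactan synthase of the cell wall, followed with an enrichment of 5.49 at chromosome 4, 10898945 to 10899566, and a signal of 3.15, 3.51 and 2.74. AT5G06040, annotated as a self-incompatibility protein-like gene, had 5.16 and the widest site, at chromosome 5, 1815883 to 1816952, with 2.72, 3.08 and 2.50. Signal past AT5G58840 and GALS3 was above the gene-end median in each library, and past AT5G06040 it was below it.

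AT5G11470, a gene for a BAH domain protein, had an enrichment of 5.13 and a signal of 3.85, 3.34 and 2.93 at chromosome 5, 3662207 to 3662906, with library 1 highest. AT3G15960, annotated for mismatched DNA binding, had 5.08, with a signal of 2.77, 3.29 and 2.76 at chromosome 3, 5403384 to 5404167. NAC049 (AT3G04430), a NAC transcription factor, had 4.95, with 3.01, 3.35 and 2.58 at chromosome 3, 1175215 to 1175589, in a convergent gap with NAC048. These 3 sites, like AT5G58840 and GALS3, have TGGGCC within 100 bp of the midpoint. The hexamer was added after the sequences of the highest sites had been read, so its presence here is no separate support for it.

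AGK2 (AT3G57550), a guanylate kinase of nucleotide metabolism, had an enrichment of 4.91 and a signal of 4.32, 4.53 and 3.73 at chromosome 3, 21309562 to 21310254. AT5G45590, annotated as ribosomal protein L35, had 4.89, with 5.15, 6.16 and 4.09 at chromosome 5, 18483892 to 18484432, only 17 bp past the end. Both have a G-box and no TGGGCC in the 200 bp around the midpoint. At AT5G45590 this window covers part of the gene, and the G-box is not in the 92 bases past the end nearest the midpoint. The site of AT5G45590 was high on both measures and reached back into the gene.

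At the other extreme, the lowest enrichments were 2.00 past AT5G38030, a MATE efflux family gene, 2.01 past AT5G20890, a chaperonin gene, and 2.02 past AOX1A, the alternative oxidase of mitochondria. Signal at AOX1A was nevertheless 5.05, 5.70 and 4.45 at chromosome 3, 7908923 to 7909095, above the median of gene-end sites in every library. A low enrichment at this site thus did not mean few reads.

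The libraries differed most at CDF2 (AT5G39660), a DOF transcription factor of photoperiodic flowering, where the signal was 2.15, 4.15 and 2.22, a ratio of 1.93 between the highest and the lowest library, at chromosome 5, 15881325 to 15881804. At PGL2 (AT3G49360), an enzyme of the pentose phosphate pathway, it was 3.26, 4.77 and 2.53, a ratio of 1.88. At SYD (AT2G28290), the chromatin remodelling ATPase SPLAYED, it was 2.53, 3.77 and 2.01, and at AT1G30130 it was 2.44, 4.18 and 2.23. In all 4 the high value was that of library 2, the library that was highest at most shared sites.

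Hosts were compared with eligible genes in lists taken from the annotation text, for which the background is the 6.83% above. Transcription factors had 72 hosts of 762 (9.45%), ribosomal proteins 15 of 143 (10.5%), hormone genes 12 of 148 (8.11%), cell wall genes 24 of 314 (7.64%), protein kinases 28 of 388 (7.22%) and transporters 14 of 276 (5.07%). Transcription factors and ribosomal proteins stood above the background and transporters below it, with no test, and the other 3 of these lists were nearer to it. The ribosomal protein and transporter shares rest on only 15 and 14 hosts. Gap width, with which the share of gaps with a site varied, was not held constant between lists. These shares are thus descriptions only. Histone genes had 5 hosts of only 19 (26.3%), so 1 gene more or less moves the share by several points, and nothing is read from it about the list.

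The histone hosts were HIS4 (AT2G28740), a histone H4 gene with 2 sites, HIS1-3 (AT2G18050), a linker histone H1 gene, and the histone superfamily genes AT1G13370, AT3G46320 and AT5G59690. The site past AT1G13370, at chromosome 1, 4587343 to 4587672, had 3.74, 4.03 and 3.47 in libraries 1, 2 and 3. The HIS1-3 site, at chromosome 2, 7846978 to 7847193, had 2.75, 3.57 and 2.73, and the HIS4 sites 2.83, 4.15 and 2.60 at 243 bp and 3.52, 3.52 and 2.78 at 27 bp past the end. The sites of AT3G46320 had 3.23, 4.14 and 2.94 and of AT5G59690 3.25, 4.10 and 2.72. All 6 sites were above 2 times the genome average in every library.

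In the other lists, the host with the highest mean signal was AT1G25550, a myb-like transcription factor gene, with 5.10, 6.04 and 4.27 at chromosome 1, 8978276 to 8978597, in a convergent gap of 3250 bp with TEM1, and, for ribosomal proteins, AT5G45590. Among transporters it was UNE1 (AT1G29300), annotated as a putative intracellular protein transporter, with 4.35, 5.36 and 3.63. ERF8 (AT1G53170), an ethylene response factor, led the hormone list with 3.75, 4.32 and 3.60, and AT5G62340, a pectin methylesterase inhibitor family gene, the cell wall list with 3.90, 4.53 and 3.58. Library 2 was highest and library 3 lowest at each of these sites, the order of the library medians.

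**Figure D5:**
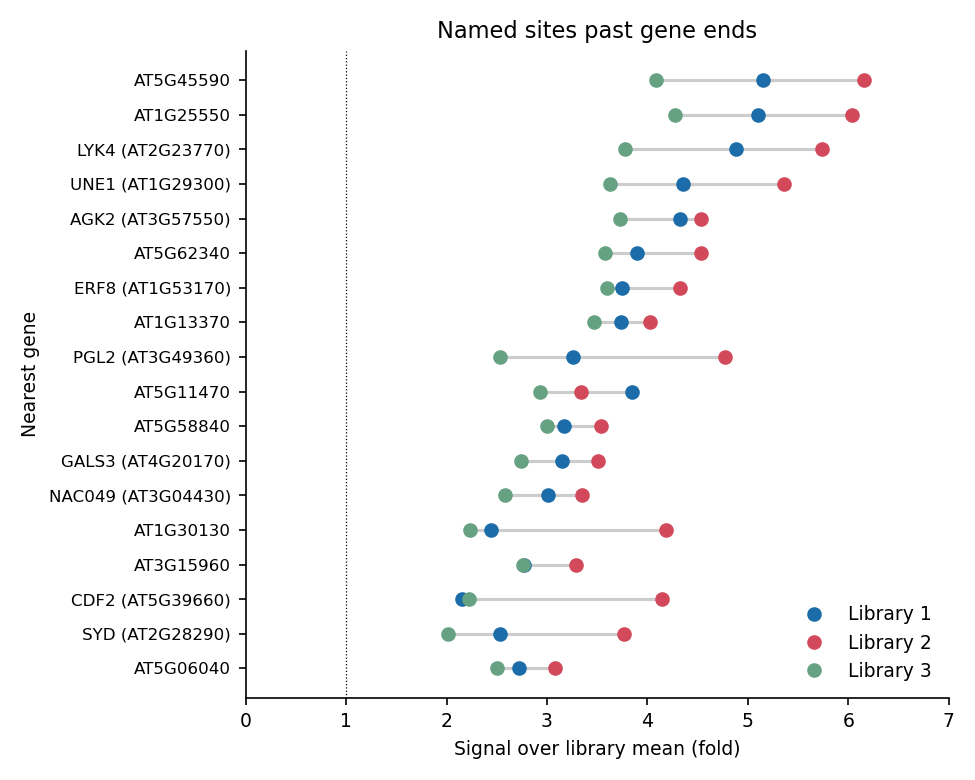
Signal over the library mean (fold) at 18 named gene-end sites, 1 point for each library, sites ordered by mean signal and the dotted line at the genome average of 1. The sites run from AT5G06040 at 2.72, 3.08 and 2.50 to AT5G45590 at 5.15, 6.16 and 4.09, and the longest spans, such as CDF2 at 2.15, 4.15 and 2.22, are set by library 2.

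Of the 10 genes with 2 sites past their end, the first 3 in locus order were AT1G14590, AT1G70780 and AT1G77750. The pair past AT1G14590, a nucleotide-diphospho-sugar transferase family gene, lay 46 and 312 bp past the end with 3.15, 3.62 and 2.61 at the near site and 2.69, 3.15 and 2.44 at the far one. The pair past AT1G77750, a ribosomal protein S13/S18 family gene, lay at 33 and 392 bp with 3.64, 3.79 and 3.10 and with 3.44, 3.63 and 2.81. At these genes the near site was the higher in each library, while past AT1G70780, at 64 and 366 bp, the near site had 2.73, 3.75 and 2.59 and the far one 3.54, 4.44 and 3.51.

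None of the 4 genes with well-known 3' regulatory DNA was a host. Only the first 400 bp past each gene were measured, and only in root nuclei. Whether the described elements lie within these 400 bp was not checked, so the values say nothing about elements farther downstream. Over the 400 bp past TFL1 the signal was 1.02, 0.795 and 0.806 in libraries 1, 2 and 3, past FT 0.550, 0.460 and 0.544, and neither held a site in any library. Past CLV3 it was 1.16, 1.11 and 0.942, with a site in 1 library only. Past FLC it was 1.83, 2.18 and 1.93, with a site found in all 3 libraries, but no position there met the rule, because each lies in another annotated gene or within 1000 bp upstream of a TSS. Of the 4, only the FLC flank was above the genome average in every library by more than the spread between libraries.

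The limits of the rule cut through sites of ordinary signal. Just inside 400 bp, at 399 bp, lay the sites past HPT1 with 3.55, 4.36 and 3.08, IDD11 with 2.24, 2.20 and 1.93 and AT4G03540 with 2.85, 3.56 and 2.48. Just outside, at 402 bp, lay those past AT2G32020 with 2.62, 3.06 and 2.56, AT1G61350 with 3.00, 2.76 and 2.41 and AT1G18410 with 1.94, 2.72 and 2.04. At the TSS limit, AT4G16444 and AT3G60940 were inside at 1007 bp and AT5G62890 at 1008 bp, and AT5G59530, AT2G46530 and AT3G12720 outside at 998, 996 and 995 bp.

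At 2 gene-end sites, past AT2G07669 and AT2G07633 on chromosome 2, every stretch of 61 bases also occurs in the organelle genomes. The enrichment past AT2G07669 was 9.29, 8.57 and 6.43 in libraries 1, 2 and 3, with a signal of 5.56, 4.77 and 3.66. Past AT2G07633 the signal was 4.63, 3.90 and 2.92. Unlike most gene-end sites they were highest in library 1. They are counted among the 799 sites but were not ranked, and the part of organelle reads in their values was not tested.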

How the data were processed

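ATAC-seq was measured in 3 libraries of root nuclei, treated as 3 replicates of 1 group. Reads of 61 bases were aligned by the authors to TAIR10 with Bowtie, keeping reads with 1 position, and PCR duplicates were removed. Whether reads in the window counts were moved to the Tn5 cut site, and the tool versions, are not given in the sources used here. The authors deposited, per library, counts of reads in windows of 100 bp every 25 bp (sums 61786860, 64805459 and 113785786) and MACS2 peaks, called per library with reads shifted and extended to 75 bp. The deposited peak lists give a score, a fold enrichment (ratio over background), the −log10 of p and q, and a summit offset, of which only the fold enrichment, and in alternatives the q-value and the summit, were used.

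Peaks were merged at 1 bp of overlap. A site's midpoint was placed against all genes and pseudogenes of the RefSeq TAIR10.1 annotation, and every window lay within its chromosome lengths. Coordinates are TAIR10, counted from 1. Signal is the mean count of windows centred in the site over the library mean, with unlisted windows at 0. Libraries, not sites, were the replicates in the sign-flip tests. Motifs were searched on both strands in 200 bp of reference sequence. Host lists came from annotation text. Keeping reads with 1 position leaves near-identical copies undercounted. Scripts ran under Python 3.11.15, numpy 2.4.6 and pandas 2.3.3 and were tested on simulated data.

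The members, lists and motifs were chosen with earlier results of these data known. Named were the 8 sites with the highest and the 3 with the lowest fold enrichment, the 4 with the largest ratio between libraries, those nearest the limits, the highest in each list, the 2 widest, the first 3 in locus order of the 10 genes tied for the most sites, 2, and 4 genes with described 3' elements. Sites with at least 50% of their 61-base stretches in organelle genomes (2 of 799) were not ranked. The histone hosts and the sites with the most TGGGCC or CACGTG were named after their values were seen. Alternatives changed the site rule, the windows, the scaling and the libraries used.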

Additional observations from a re-analysis of the deposited data

How the results depend on the processing

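Of 98 alternative values, 69 were counted as unchanged, 28 as moved and 1 as changed in direction. For the log2 ratios only the sign was compared, and for the other values the spread or a set limit. The host promoter ratio thus counts as unchanged. It was 0.21 among genes with lengths within the host quartiles, against 0.41 in the main setting. The log2 ratio of gene-end to upstream promoter signal became -0.02 in windows of 200 bp around the midpoint. Scaled to the median of all shared sites, the signal of gene-end sites was 1.00, level with that median. It counts among the 28 that moved because the unit differs from the library mean, on which it was 2.91. There were 428 sites within 200 bp of the end and 1077 within 600 bp. The number was 688 at a −log10 q of at least 3, 533 with a reciprocal overlap of 50%, 1133 with peaks in at least 2 libraries and 967 when only protein-coding genes excluded a site. The share of eligible ends with a site was 7.40% with only protein-coding genes and 5.88% at the stricter q. Leaving out each library in turn gave 845 to 1043 sites, a share of 7.13% to 8.85% and an R squared of 0.717 to 0.790. The cause was not tested, beyond the fewer lists that a site must then be in.

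The share with TGGGCC, the windows of 34 to 38% GC and the count without pseudogenes, 828, were added after the data were seen. Motif shares grow with the window, from 5.76% in 100 bp to 12.5% in 300 bp for CACGTG. No paired analysis between groups was possible because the study has 1 group, and classes of site were compared within each library. With 3 libraries no exact p could fall below 0.25. Libraries 1 and 2 had fewer counts than library 3, and the part of depth in the number of shared sites was not tested.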

Other observations

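The share of gene-end sites with TGGGCC was also counted within the host lists, on small numbers. It was 11 of 23 sites of cell wall hosts (47.8%), 6 of 14 of transporter hosts (42.9%), 6 of 15 of ribosomal protein hosts (40.0%), 26 of 71 of transcription factor hosts (36.6%), 9 of 28 of kinase hosts (32.1%) and 2 of 12 of hormone hosts (16.7%), against 29.3% of all gene-end sites. A G-box was at 5 of 28 sites of kinase hosts (17.9%) and at 6 of 71 sites of transcription factor hosts (8.45%), against 10.1% of all gene-end sites. These counts were made after the motif was chosen and were not tested.

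In tandem gaps the next gene had a shared site within 400 bp upstream of its TSS in 20.8% of the 423 gaps with a gene-end site and in 16.2% of the 4339 without. Gap width was not held constant in this comparison.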
